A study of Homo sapiens with 16 samples.

Results

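HOXB13 is a homeodomain protein of prostate epithelium that binds DNA together with partners such as the androgen receptor, FOXA1 and MEIS proteins. G84E is an inherited missense variant of HOXB13 linked to prostate cancer risk, and it lies in a stretch of the protein that contacts MEIS proteins, outside the homeodomain. HDAC3, the catalytic subunit of the NCOR and SMRT corepressor complexes, removes acetyl groups from histones, and the submitters' title ties HOXB13 to HDAC3 and lipid metabolism. HDAC1 is the related deacetylase of other corepressor complexes, such as NuRD and Sin3. ATAC-seq marks accessible chromatin, where most enhancers and promoters in use are found.

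The regions described here are the HOXB13 peaks of control LNCaP cells that were found again when wild-type HOXB13 (WT) was re-expressed, but not when G84E was. A region was chosen by 3 deposited peak lists, when its control peak overlapped a WT peak by at least 1 bp and no G84E peak. The rule took 12034 of 91430 control peaks, which is 13.2% (Wilson 95% interval 12.9 to 13.4). They are called WT-alone sites below. The mirror set, selected on a G84E peak and no WT peak, holds 8222 control peaks (8.99%) and is called G84E-alone. A further 49589 control peaks (54.2%) met a peak of both forms, and 21585 (23.6%) met neither.

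LNCaP is an androgen-sensitive prostate cancer cell line. In the WT group, cells received a HOXB13 short hairpin RNA (shHOXB13) together with a lentivirus for wild-type HOXB13, and in the G84E group the same hairpin with a lentivirus for the variant. The knockdown group received shHOXB13 with no HOXB13 virus, and the control group the pGIPZ control hairpin vector. Infection lasted 7 days, so both re-expression groups share the knockdown that the control lacks, and the level of either virus-borne protein is not given in the sources used here. For PC-3, an androgen-independent prostate cancer line, lists of HOXB13 (pGIPZ) and of H3K27ac, the histone acetylation found at enhancers and promoters in use (shHOXB13 and pGIPZ), were used. PC-3 HOXB13 was precipitated with another antibody than LNCaP HOXB13. The lists pair no peak with a gene, so the lines could not be checked against marker genes.

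Each group held 1 library, so no result has replicates, the groups could not be tested against each other and p-values are not given. All intervals are 95% intervals that cover counting error over sites, and sites of 1 library are not replicates of a condition. The total was 40.3 M tags (M for mega) in the WT library, 44.2 M in the G84E library and 34.4 M in the control library, which gave 190879, 191796 and 91430 peaks. The caller set a limit of 4.47 normalized tags (tags per 10000000) in the WT library, 4.30 in the G84E library and 4.66 in the control. Listed counts reached down to 2.98, 3.17 and 3.49 in the same order, so these limits are no floor of the deposited counts. The caller then removed peaks that did not stand 4-fold above the surrounding 10000 bp. That step took 63637 of 254554 putative peaks from the WT list and 83546 of 275378 (30.3%) from the G84E list, and its part in what follows was not tested. A site without a peak of a form is one where that form fell short of these limits, which does not show that the form was absent.

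WT-alone sites had a control level a little below that of all control peaks. Its median was 6.98 normalized tags (quartiles 5.82 and 8.73), against 7.28 over all control peaks, 6.40 (5.53 and 7.86) at G84E-alone sites, 9.02 at sites of both forms and 6.40 at sites of neither. The WT library had a median of 6.70 normalized tags at WT-alone sites (quartiles 5.46 and 8.69, 95th percentile 13.4), against 11.2 at sites of both forms. The typical WT-alone site therefore lay little above the caller's limit of 4.47, and the lowest listed WT level among these sites was 3.48. At G84E-alone sites the G84E library had a median of 6.11 normalized tags, against 9.73 at sites of both forms. Since the sites were chosen by these same lists, these levels are a description and support nothing further.

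At WT-alone sites the WT level was close to the control level, with a median log2 ratio of WT over control of −0.07 (quartiles −0.36 and 0.25). The same ratio had a median of 0.24 at sites of both forms. At G84E-alone sites the median log2 ratio of G84E over control was −0.10. The authors' fold of a control peak over its local background was 6.12 at WT-alone and 6.04 at G84E-alone sites in the median. The authors' focus ratio, the fraction of a peak's tags found where a single bound position would put them up- and downstream of its centre, had a median of 0.778 in both sets. The control peaks of the sets thus had close medians in these 2 measures.

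Among the 20256 control peaks regained with 1 form only, 59.4% (58.7 to 60.1) were WT-alone, and that share was higher among strong than among weak control peaks. In the weakest of 10 groups of control peaks, of 4371 to 11519 peaks each, 52.9% (51.2 to 54.7) of the one-form sites were WT-alone. In the strongest group 73.9% (68.9 to 78.4) were. As a share of all control peaks, WT-alone sites made up 14.5% of the weakest group and 16.2% of the sixth group, but only 2.69% of the strongest, where 95.1% of control peaks met both forms. G84E-alone sites made up 12.9% of the weakest and 0.948% of the strongest group. Both sets therefore thinned out among strong peaks, G84E-alone sites more so.

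**Figure D1:**
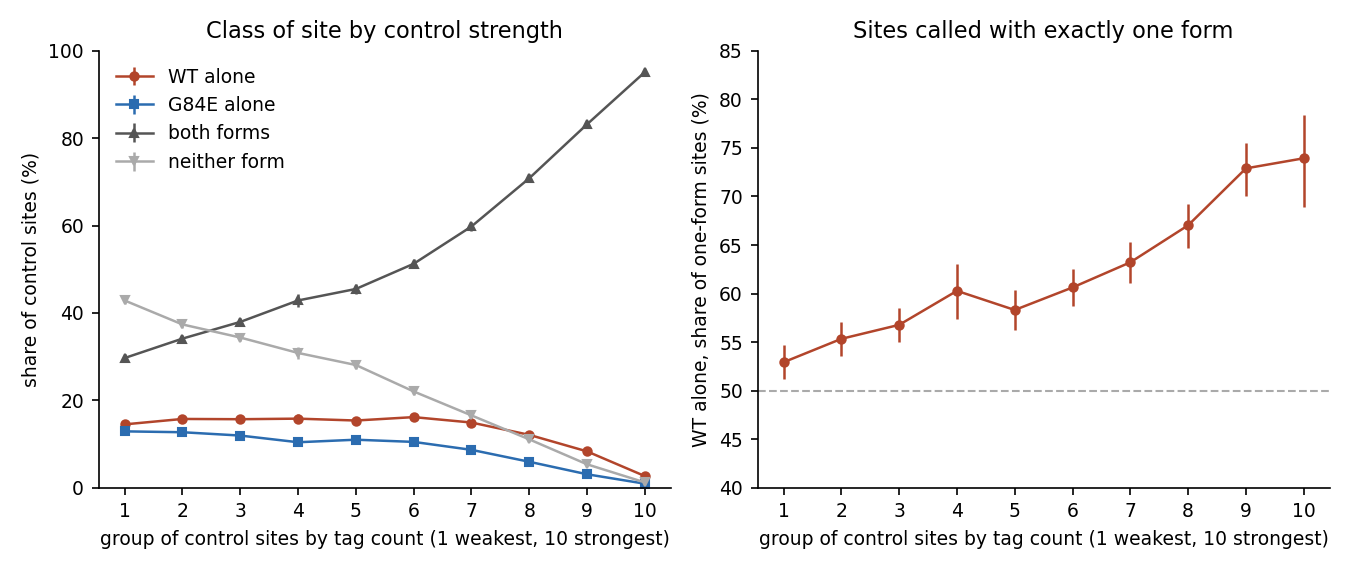
Share of control HOXB13 peaks in each class (%, left) and share of one-form sites that are WT-alone (%, right) over 10 groups of control normalized tag count, from weakest to strongest, with 95% intervals. WT-alone sites fall to 2.69% of the strongest group, while their share of one-form sites there is 73.9%.

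The edge of the rule was thinly filled. The control and WT peaks of a WT-alone site shared a median of 233 bp, and in 88.3% of sites they shared more than 50% of the shorter peak. Just inside, 73 WT-alone sites shared at most 10 bp with their WT peak, and they had a median of 6.69 normalized tags in the control and 7.20 with WT. Another 86 had a G84E peak that began less than 10 bp away, with 8.15 normalized tags in the control and 8.44 with WT. Just outside, 97 control peaks were lost to the set because a G84E peak shared at most 10 bp with them, with 6.98 normalized tags in the control.

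A G84E peak often stood beside a WT-alone site without touching it. It lay within 500 bp at 1857 WT-alone sites (15.4%, 14.8 to 16.1), and a WT peak lay within 500 bp of 17.9% (17.1 to 18.7) of G84E-alone sites. For comparison, 13.0% of the sites of neither form had a G84E peak that close, and 13.8% a WT peak. Among the 241 WT-alone sites in the strongest group of control peaks the share was 30.7% (25.2 to 36.8), against 12.5% (10.99 to 14.2) of the 1673 in the weakest. A WT peak lay within 500 bp of 41.2% (31.3 to 51.8) of the 85 strongest G84E-alone sites. Sites of neither form showed the same change with strength. In the strongest group 33.3% (25.3 to 42.5) of them had a G84E peak and 37.8% (29.4 to 47.1) a WT peak within 500 bp, against 9.80% and 9.68% in the weakest. A nearby peak was thus not a trait of WT-alone sites alone.

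The strongest WT-alone sites on chromosomes 1 to 22 and X also had a G84E peak nearby, at up to 849 bp (positions in hg19). The site at chr9:66833168-66833458 had 93.9 normalized tags with WT (exact Poisson interval 84.6 to 103.8) and 119.3 in the control (108.0 to 131.4). A G84E peak of 109.8 normalized tags lay 242 bp away from it. The site at chr9:68420709-68420999 had 133.1 normalized tags with WT and 115.8 in the control, and a G84E peak of 212.3 lay 849 bp away. On chromosome 1, the site at chr1:121354901-121355191 had 71.0 with WT and 102.4 in the control, with a G84E peak of 75.6 at 423 bp. All of these G84E levels were of the same order as the WT level of the site itself, so at these positions the G84E library had tags in a neighbouring window. Knockdown cells without a HOXB13 virus also had a HOXB13 peak at chr9:66833168-66833458 (78.0 normalized tags) and at chr1:121354901-121355191 (141.8). They had none at chr9:68420709-68420999. The control peak stood 4.87-fold above its local background at that site and 4.02-fold at chr1:121354901-121355191, close to the caller's 4-fold limit. At chr9:66833168-66833458 it stood 12.5-fold above. Peaks were called without an input library, so the part of background signal in these high counts was not tested.

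The site at chr9:68403232-68403522 had 39.2 normalized tags with WT and 52.7 in the control, with a G84E peak of 36.2 at 486 bp. The site at chr1:121289192-121289482 had 48.7 with WT and 50.1 in the control, with a G84E peak of 31.7 at 70 bp. The fourth by WT level lay at chr15:80070694-80070984, with 57.6 normalized tags with WT, 46.6 in the control and a G84E peak of 30.1 at 86 bp. None of these 6 sites is more than 849 bp from a G84E peak. Among G84E-alone sites the strongest was chr10:42391552-42391842, with 997.8 normalized tags with G84E and 1432 in the control, and a WT peak of 1022 lay 4060 bp away. A further 63 WT-alone sites lay on other sequences of the build, and the highest of these had 891.7 normalized tags in the control.

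The WT-alone sites carried more of the other marks than G84E-alone sites of the same strength. The 9 lists that played no part in the rule were compared over 10 groups of control normalized tag count, weighted as the WT-alone sites are, so that both sets stand at equal control level. HDAC3 in control cells had a peak at 1564 WT-alone sites (13.0%) and at 692 G84E-alone sites (8.42%). At equal control level the G84E-alone share was 9.59%, a difference of 3.41 percentage points (2.50 to 4.31). HDAC3 in knockdown cells had a peak at 1199 WT-alone sites (9.96%) and 537 G84E-alone sites (6.53%), a difference of 2.59 points (1.79 to 3.40) at equal level. Of all control HOXB13 peaks, 13.4% met a control HDAC3 peak and 9.39% a knockdown HDAC3 peak, so the WT-alone sites stood near the average of all control sites and the G84E-alone sites below it. The WT-alone sites themselves are 13.2% of control peaks. When peaks had to lie with centres within 100 bp, the HDAC3 differences were 1.40 points (0.765 to 2.04) in control and 0.817 points (0.325 to 1.31) in knockdown cells.

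Accessible chromatin followed the same order. An ATAC peak of knockdown cells lay at 1259 WT-alone sites (10.5%) and 522 G84E-alone sites (6.35%), and an ATAC peak of control cells at 1329 (11.04%) and 552 (6.71%). The differences at equal control level were 3.29 points (2.48 to 4.09) in knockdown cells and 3.30 points (2.47 to 4.13) in control cells. Among all control HOXB13 peaks, 8.91% met a knockdown and 10.3% a control ATAC peak. With centres within 100 bp the control ATAC difference was 1.87 points (1.201 to 2.53).

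HDAC1 did not show the difference. Its list had a peak at 259 WT-alone sites (2.15%) and 161 G84E-alone sites (1.958%), against 1.93% of all control HOXB13 peaks. At equal control level the difference was −0.00019 points (−0.427 to 0.426). With a peak at only 2.15% of WT-alone sites, an excess as large in points as that of HDAC3 could not have arisen. The HDAC1 and HDAC3 differences therefore cannot be compared in points. The HDAC1 list is short, with 16632 peaks from 14.0 M tags, against 33964 peaks from 21.6 M tags for HDAC3 in control cells, and the 2 share differences were not tested against each other.

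HOXB13 peaks that were still called in knockdown cells were rare in both sets. They lay at 170 WT-alone sites (1.41%) and 114 G84E-alone sites (1.39%), against 1.48% of all control peaks, with a difference of −0.256 points (−0.632 to 0.121) at equal level. Absence from the knockdown list was thus about as common at WT-alone sites as among all control peaks, and presence in the list with WT is part of the rule.

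**Figure D2:**
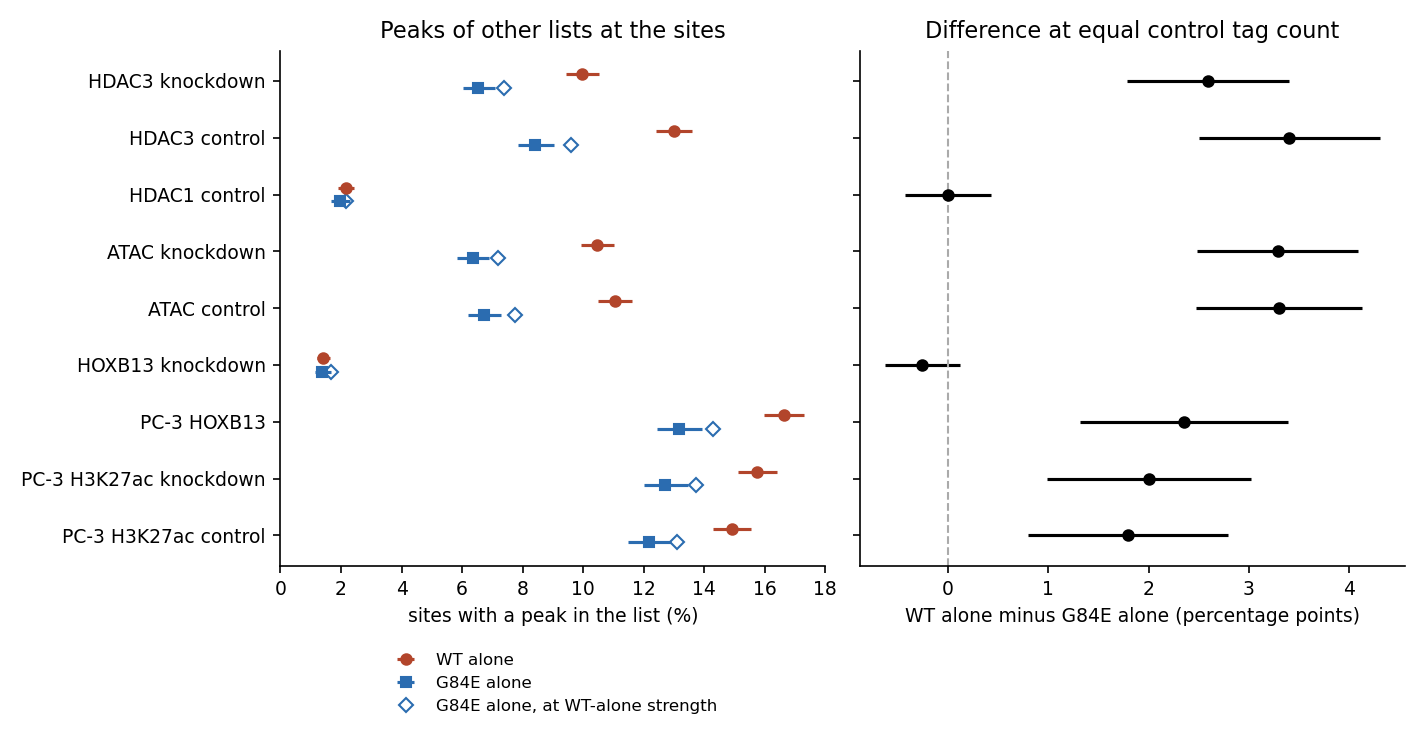
Share of WT-alone and G84E-alone sites with a peak in each of 9 other lists (%, left; open symbols give G84E-alone sites at the control strength of the WT-alone sites) and the difference at equal control tag count in percentage points (right), with 95% intervals. All lists but HDAC1 and HOXB13 after knockdown lie to the right of 0, from 1.79 to 3.41 points.

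The same statement can be made from the other side. Of the 2256 one-form sites with a control HDAC3 peak, 69.3% (67.4 to 71.2) were WT-alone, against 58.2% (57.4 to 58.9) of those without. Of the 1881 one-form sites with a control ATAC peak, 70.7% (68.6 to 72.7) were WT-alone, against 58.3% (57.5 to 59.0) of those without. For HDAC1 the shares were 61.7% (56.9 to 66.2) and 59.4% (58.7 to 60.04).

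The differences were not carried by 1 range of peak strength. When the one-form sites were split into 10 groups of control tag count, the control HDAC3 share was higher at WT-alone sites in 10 of 10 groups, and the interval lay above 0 in 6. The control ATAC share was also higher in 10 of 10, with the interval above 0 in 8. In the weakest group 4.54% of WT-alone and 2.76% of G84E-alone sites had a control ATAC peak. In the strongest group 26.2% and 19.2% had one. For HDAC3 the shares were 6.10% and 4.17% in the weakest group, and 25.9% and 21.6% in the strongest. HDAC1 was higher at WT-alone sites in 5 of 10 groups, with no interval on either side of 0.

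**Figure D3:**
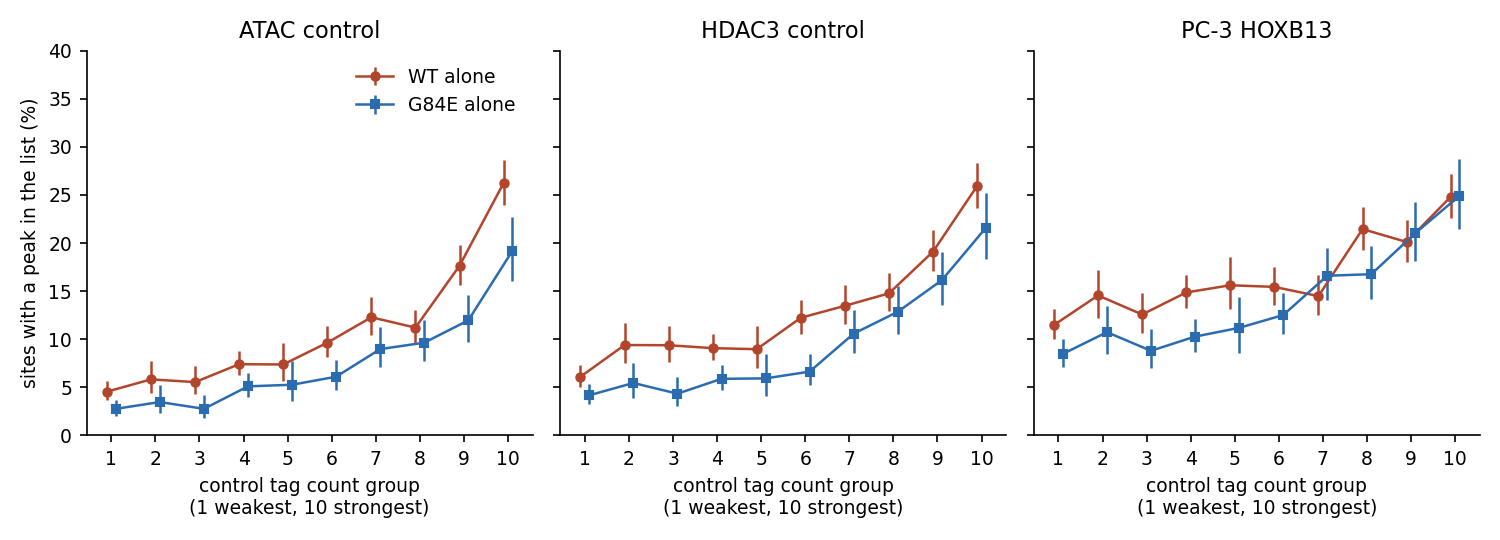
Share of WT-alone and G84E-alone sites with a peak of the named list (%) over 10 groups of control normalized tag count of the one-form sites, with 95% intervals. The ATAC and HDAC3 shares climb with strength in both sets and the WT-alone points lie above the G84E-alone points in all 10 groups.

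For control ATAC and control HDAC3 the difference was larger within 50 bp than in any bin farther out. A control ATAC peak had its centre within 50 bp of 4.33% of WT-alone and 2.23% of G84E-alone sites, a difference of 2.10 points (1.62 to 2.59). At 100 to 200 bp the shares were 3.54% and 2.42%, and at 200 to 400 bp 1.65% and 1.47%, where the interval (−0.181 to 0.514) held 0. Farther out the ATAC shares differed again only at 1600 to 3200 bp, by 0.573 points (0.124 to 1.01), and at 3200 to 6400 bp, by 0.733 points (0.153 to 1.30). Knockdown ATAC peaks differed by 1.97 points (1.51 to 2.43) within 50 bp.

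For control HDAC3 the difference was 1.74 points (1.28 to 2.19) within 50 bp and 0.524 points (0.0590 to 0.976) at 200 to 400 bp, and every interval from 400 bp outwards held 0. HDAC3 peaks of knockdown cells followed another course, with 0.880 points (0.517 to 1.23) within 50 bp, 1.35 points (0.919 to 1.77) at 100 to 200 bp and 0.785 points (0.148 to 1.41) at 3200 to 6400 bp. PC-3 HOXB13 peaks differed by 2.18 points (1.50 to 2.85) within 50 bp and by 1.08 points at 50 to 100 bp, while at 800 to 1600 bp the difference was −0.593 points (−1.16 to −0.0385). These distances were compared without matching for control level.

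**Figure D4:**
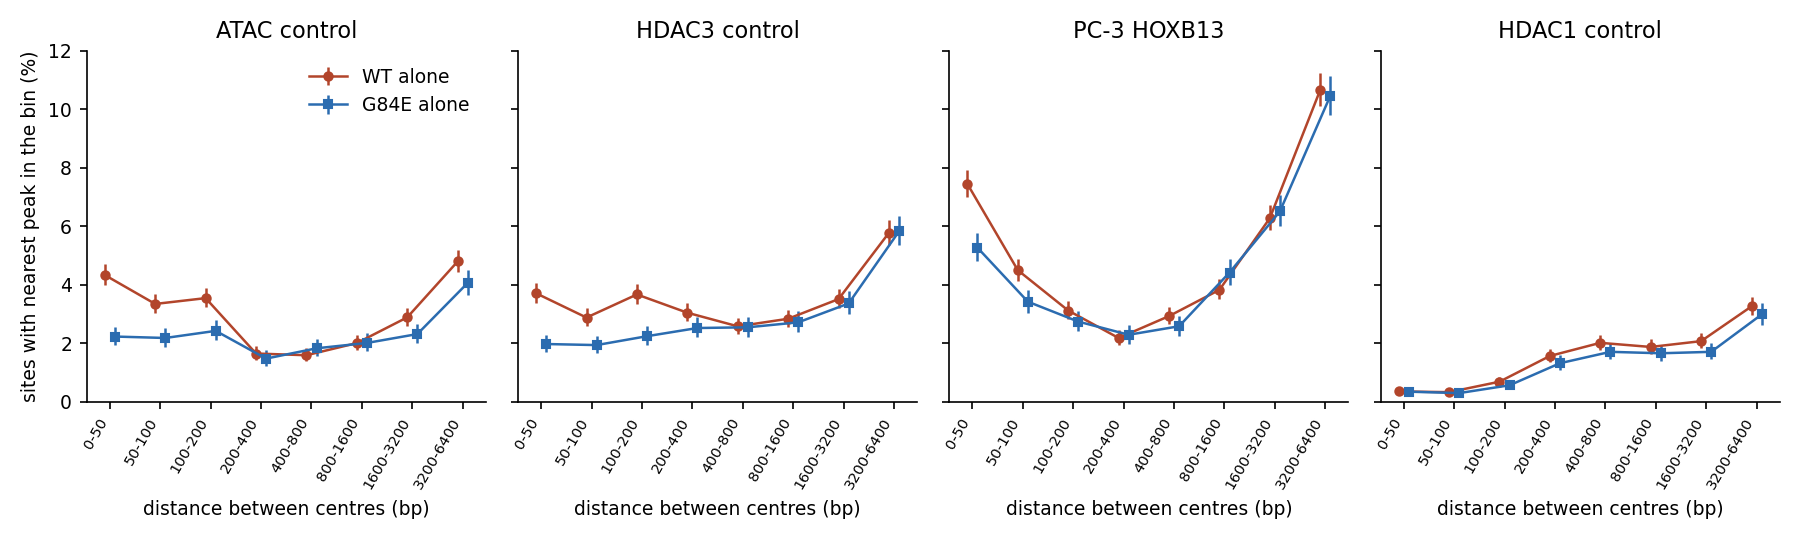
Share of WT-alone and G84E-alone sites whose nearest peak of the named list has its centre in each distance bin (%, distance in bp between the centres of that peak and the control HOXB13 peak), with 95% intervals. The curves for ATAC, HDAC3 and PC-3 HOXB13 part within the first bins and those for HDAC1 lie close together, at 4.33% and 2.23% for control ATAC within 50 bp.

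Where an ATAC or HDAC3 peak was present, its median level was close in both sets. The control ATAC peaks at WT-alone and at G84E-alone sites both had a median of 5.26 normalized tags, as did the whole ATAC list. Control HDAC3 peaks had a median of 16.7 normalized tags at WT-alone and 17.2 at G84E-alone sites, against 15.3 over the whole list. HDAC1 peaks had 18.6 and 20.8, against 17.2 over the list. The sets thus differed in how many sites had a peak, with similar medians among the peaks that were there.

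Most WT-alone sites had no peak in any of the 9 other lists. This held for 7417 of them (61.6%), for 5829 G84E-alone sites (70.9%) and for 59.9% of all control peaks, and at equal control level the difference was −6.55 points (−7.87 to −5.23). At the other end, 1776 WT-alone sites (14.8%) and 809 G84E-alone sites (9.84%) had peaks in 3 or more of the 9 lists. The share was 17.1% at sites of both forms and 9.42% at sites of neither, without matching for control level. Peaks in 3 or more lists were thus not a trait of WT-alone sites alone. ATAC and HDAC3 peaks of control cells coincided at 717 WT-alone sites (5.96%) and 307 G84E-alone sites (3.73%), a difference of 1.73 points (1.10 to 2.36) at equal level. ATAC without HDAC3 was found at 5.09% and 2.98%, and HDAC3 without ATAC at 7.04% and 4.68%. Each of these combinations was thus more frequent at WT-alone than at G84E-alone sites. Over all control peaks, ATAC with HDAC3 was found at 5.775%, ATAC without HDAC3 at 4.492% and HDAC3 without ATAC at 7.615%. WT-alone sites therefore stood near the share of all control peaks, and G84E-alone sites below it.

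Within accessible sites the HDAC3 shares could not be told apart. Of the sites with a control ATAC peak, 54.0% of WT-alone and 55.6% of G84E-alone sites also had a control HDAC3 peak, with a difference of −0.935 points (−5.93 to 4.06) at equal level. Of the sites without one, 7.91% and 5.02% had an HDAC3 peak, a difference of 2.23 points (1.48 to 2.98). Seen the other way, 45.8% and 44.4% of sites with HDAC3 had an ATAC peak, and 5.85% and 3.25% of sites without HDAC3 had one. The change of the difference between these strata was not tested. Among sites with HDAC3, HDAC1 was found at 11.7% of WT-alone and 15.5% of G84E-alone sites, −3.48 points (−6.59 to −0.370) at equal level. That difference turned to 1.24 points (−0.720 to 3.20) when peaks had to lie with centres within 100 bp, so its direction rests on how overlap is defined.

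The shares of HDAC3 and ATAC peaks that were found again after HOXB13 knockdown did not differ between the sets beyond counting error. Of the 1564 control HDAC3 peaks at WT-alone sites, 848 (54.2%, 51.7 to 56.7) met a knockdown HDAC3 peak. The share was 52.0% (48.3 to 55.7) at G84E-alone sites and 47.6% over the whole list. At equal HDAC3 level the difference between the sets was 3.28 points (−0.853 to 7.42). For ATAC, 58.9% (56.3 to 61.5) of 1369 control peaks at WT-alone and 57.9% (53.8 to 61.9) at G84E-alone sites met a knockdown peak, against 49.8% of the list, with a difference of 0.321 points (−4.20 to 4.84).

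The log2 ratio of knockdown over control tags at kept HDAC3 peaks had a median of −0.48 at WT-alone, −0.47 at G84E-alone sites and −0.44 over the list. These HDAC3 ratios include a log2 ratio of peak widths of −0.37. At kept ATAC peaks the medians were 0.20, 0.25 and 0.12, with a log2 width ratio of 0.21. With a single library on each side, these numbers describe the libraries and not the effect of the knockdown.

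WT-alone sites were also more often HOXB13 sites in PC-3. A PC-3 HOXB13 peak lay at 2001 of them (16.6%) and at 1082 G84E-alone sites (13.2%), with a difference of 2.35 points (1.32 to 3.39) at equal control level. It was 1.52 points (0.537 to 2.51) when an overlap of 50% of the shorter peak was required. Both shares were below the 21% of all control HOXB13 peaks. The PC-3 peaks had a median of 14.5 normalized tags at WT-alone and 12.7 at G84E-alone sites, against 12.7 over the PC-3 list. Over the 10 strength groups the share was higher at WT-alone sites in 7, with the interval above 0 in 6. In the weakest group it was 11.5% and 8.47%, and in the strongest 24.8% and 24.9%, a difference of −0.094 points (−4.51 to 4.10) there. How the difference changed with strength was not tested.

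Acetylated chromatin of PC-3 also lay more often at WT-alone sites. A PC-3 H3K27ac region of knockdown cells covered part of 1895 WT-alone sites (15.7%, 15.1 to 16.4) and 1045 G84E-alone sites (12.7%), against 14.9% of all control peaks. In control PC-3 cells the counts were 1794 (14.9%) and 1001 (12.2%), against 14% of all. The differences at equal control level were 2.01 points (0.992 to 3.02) and 1.79 points (0.798 to 2.79). The difference in control cells was 1.13 points (−0.283 to 2.54) among the better-scoring 50% of every list, where the interval held 0, and 1.07 points (0.130 to 2.01) with an overlap of 50% of the shorter peak. PC-3 HOXB13 peaks inside acetylated regions of control PC-3 cells were found at 7.01% and 5.13% of the sets, against 7.35% of all control peaks. PC-3 HOXB13 peaks outside these regions were found at 9.61% and 8.03%, against 13.7% of all. Both sets thus lay below all control peaks in both cases.

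At sites that LNCaP ATAC already marked, the acetylated share ran the other way. Of those with a control ATAC peak, 40.8% of WT-alone and 48.0% of G84E-alone sites lay in PC-3 H3K27ac of control cells, −4.95 points (−9.83 to −0.063) at equal level. The interval held 0 in 7 of 9 other settings, with values from −7.51 to −0.897. At sites without an ATAC peak the shares were 11.7% and 9.60%, a difference of 1.40 points (0.469 to 2.33). This interval held 0 among the better-scoring 50% of every list, at 0.658 points (−0.694 to 2.01), and among sites with re-expressed tags at or above the list median, at 1.19 points (−0.194 to 2.57).

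Set against sites that both forms regained, the direction for ATAC and HDAC3 depended on whether control strength was matched. Unmatched, a control HDAC3 peak lay at 13.0% of WT-alone and 16.8% of both-form sites, −3.79 points (−4.47 to −3.10), and a control ATAC peak at 11.04% and 12.4%, −1.32 points (−1.94 to −0.676). At equal control level WT-alone sites had the higher shares. The control ATAC share was 11.04% at WT-alone sites and 7.06% at both-form sites of the same control level, a difference of 3.99 points (3.39 to 4.58). The control HDAC3 difference was 2.72 points (2.06 to 3.37), and that of HDAC1 0.755 points (0.471 to 1.04). PC-3 HOXB13 went the other way, with 16.6% at WT-alone and 23.04% at both-form sites of the same level, −6.41 points (−7.20 to −5.63).

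Set against sites that neither form regained, WT-alone sites had higher shares of ATAC, HDAC3 and PC-3 HOXB13 peaks. The difference was 2.55 points (1.84 to 3.27) for control ATAC, 3.55 points (2.80 to 4.31) for control HDAC3 and 6.20 points (5.38 to 7.02) for PC-3 HOXB13. For HDAC1 it was −0.160 points (−0.515 to 0.194), and for PC-3 H3K27ac of control cells 0.423 points (−0.414 to 1.26), both with intervals that held 0. The order of PC-3 HOXB13 shares at the control level of WT-alone sites was therefore 23.04% at both-form, 16.6% at WT-alone, 14.3% at G84E-alone and 10.4% at neither-form sites. For control ATAC at that level the order was 11.04% at WT-alone, 8.49% at neither-form, 7.74% at G84E-alone and 7.06% at both-form sites, whereas the unmatched share was highest at both-form sites (12.4%). All 4 classes are defined by the same control list and the same 2 re-expression lists.

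**Figure D5:**
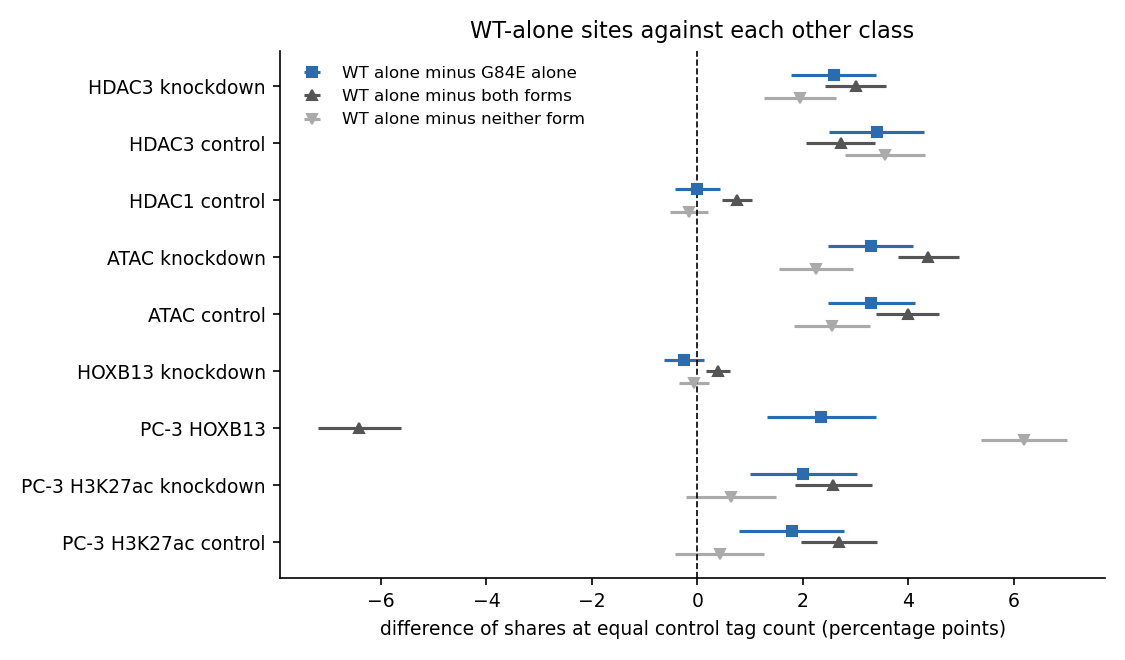
Difference of WT-alone sites from G84E-alone, both-form and neither-form sites at equal control tag count (percentage points, 95% intervals) in each of the 9 other lists. The PC-3 HOXB13 difference is −6.41 points from both-form and 6.20 points from neither-form sites, while the control ATAC difference lies between 2.55 and 3.99 points from all classes.

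On chromosomes 1 to 22 and X, to which the regions named next are limited, the WT-alone sites with the strongest peaks of HDAC3 and ATAC were farther from G84E peaks than the strongest HOXB13 sites were. The site at chr14:45431089-45431379 had 14.4 normalized tags of HOXB13 with WT (10.9 to 18.6) and 14.0 in the control (10.3 to 18.5), and the nearest G84E peak lay 8815 bp away. Its HDAC3 level was 47.1 normalized tags in knockdown and 104.8 in control cells, and its ATAC level 28.7 and 26.6. A PC-3 HOXB13 peak of 62.2 lay there too. The site at chr1:17066720-17067010 had 81.0 normalized tags of HDAC3 in knockdown and 104.3 in control cells, with no ATAC peak, and 7.20 of HOXB13 with WT and 7.57 in the control.

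The site at chr1:201566982-201567272 had 56.3 normalized tags of HDAC3 in knockdown and 99.7 in control cells, and ATAC levels of 23.2 and 20.8. Its HOXB13 level was 11.2 with WT and 13.4 in the control, and it had no peak in any PC-3 list. The highest control ATAC level on these chromosomes was found at chr4:166248389-166248679, with 33.4 normalized tags in knockdown and 32.1 in control cells, and HOXB13 was 9.68 with WT (6.89 to 13.2) and 23.6 in the control (18.7 to 29.3). At this site the interval with WT lay below that of the control. The site at chr7:120590464-120590754 had ATAC levels of 19.2 in knockdown and 25.2 in control cells and no HDAC3 peak. Distances from the nearest G84E peak at these 4 sites ran from 2636 bp at the chromosome 7 site to 11078 bp at chr1:17066720-17067010, with 4920 and 5034 bp at the others.

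On the same chromosomes, the highest PC-3 HOXB13 level at a WT-alone site was 270.8 normalized tags at chr10:78733614-78733904, where LNCaP HOXB13 was 14.2 with WT and 11.1 in the control. Neither ATAC nor HDAC3 had a peak there in LNCaP, and a G84E peak of 15.6 lay 416 bp away. The sites at chr10:33472633-33472923 and chr14:55773555-55773845 had 173.2 and 155.4 normalized tags of PC-3 HOXB13. They likewise had no LNCaP ATAC or HDAC3 peak, so the 3 sites that were strongest in PC-3 on these chromosomes had no LNCaP call of either mark. On other sequences of the build the levels at WT-alone sites reached 8224 normalized tags for PC-3 HOXB13, 16639 for control HDAC3 and 140.9 for control ATAC.

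Only 11 of the 12034 WT-alone sites and 6 of the 8222 G84E-alone sites had a peak in all 9 other lists. So did 44 of 49589 sites of both forms and 8 of 21585 sites of neither, so such sites were rare in every class. The strongest of the 11 on these chromosomes was chr17:41381765-41382055. It had 17.1 normalized tags of HOXB13 with WT and 22.1 in the control, and a G84E peak of 8.37 lay 29 bp away. Its HDAC3 level was 50.9 in knockdown and 68.2 in control cells, and its HDAC1 level 63.1. At chrX:38663369-38663659 HOXB13 was 7.70 with WT and 9.31 in the control, the PC-3 H3K27ac region had 495.5 normalized tags in knockdown and 350.2 in control cells, and the nearest G84E peak was 12607 bp away. Leaving out the 192 WT-alone and 108 G84E-alone sites that had peaks in 9 or more of the 12 lists changed the control HDAC3 difference to 3.37 points (2.51 to 4.23) and the control ATAC difference to 3.17 points (2.39 to 3.95).

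WT-alone sites were spread over the genome. On each of 23 chromosomes more than 50% of one-form sites were WT-alone, from 56.0% (51.4 to 60.4) on chromosome 13 to 69.1% (61.7 to 75.6) on chromosome 22. On 20 chromosomes the interval held the value of all one-form sites, and on chromosomes 1 (61.9%), 4 (62.1%) and 22 it lay above. WT-alone sites did not lie beside each other more often than other sites did. Of the 6328 WT-alone sites with another control HOXB13 peak within 10000 bp, the nearest was WT-alone in 12.2% (11.4 to 13.0), against 14.2% (13.2 to 15.3) for the 4184 G84E-alone sites with such a neighbour. The difference of −2.05 points (−3.40 to −0.734) turned to 0.242 points (−2.15 to 2.52) among the better-scoring 50% of every list. The class of a neighbour rests on the same lists as the rule, so these shares are a description only. Sites nearest to each other were counted from both sides, which these intervals do not cover.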

How the data were processed

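The members and lists described above were chosen with earlier results of these data known. The submitters' processing notes name Bowtie2, HOMER 4.2 and hg19. Peaks were called by the authors in each library separately with HOMER findPeaks, per the file headers, without an input library and at a false discovery rate of 0.001. HOXB13, HDAC1, HDAC3 and ATAC peaks (factor style) had 1 fixed width per library, from 96 bp (ATAC, control) to 471 bp (HDAC3, control), and passed a local Poisson p of 0.0001. PC-3 H3K27ac regions (histone style) had no local filter. The signal used is the deposited normalized tag count, which covers the library's own peak width. The deposited findPeaks score ranked peaks within a list, while the deposited focus ratio (a fraction) and the fold against local background, as deposited, only described peaks. All 493162 values under 10 normalized tags came out as whole tags within 0.1 tags.

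Total tags (M for mega) ran from 13.5 M (PC-3 H3K27ac, knockdown) to 47.2 M (HOXB13, knockdown). Peaks met when they shared at least 1 bp, and of several the highest was used. Shares have Wilson intervals, differences Newcombe intervals, and differences at equal level analytic intervals over 10 groups (5 for peaks kept after knockdown). Levels of named regions have exact Poisson intervals. Tied tag counts made the groups unequal in size. The calculations, tested on simulated data, used Python 3.11.15, numpy 2.4.6, pandas 2.3.3, scipy 1.17.1 and matplotlib 3.10.9.

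Named regions, on chromosomes 1 to 22 and X, were the 5 WT-alone sites highest in control and in WT tags, the 5 in most lists, and the 3 highest in control HDAC3, control ATAC and PC-3 HOXB13; of these and of the G84E-alone sites taken by the same rule, examples are printed. The LNCaP H3K27ac libraries (4 of 16 samples), hg19 sequence and gene annotation were not used here. Alternatives were other overlap rules, list lengths, tag floors, sequences, recurrent sites and matching. Matching on fold and a limit on re-expressed tags were added after the data were seen, as were the comparisons with both-form and neither-form sites, combinations and distances.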

Additional observations from a re-analysis of the deposited data

How the results depend on the processing

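No paired analysis was possible because each group held 1 library. The differences at equal control level for HDAC3, ATAC and PC-3 HOXB13 and for PC-3 H3K27ac of knockdown cells (6 lists) stayed above 0 with their intervals in all 78 values from the 13 alternatives each. The lowest values for both HDAC3 lists and control ATAC came with centres within 100 bp. Values ran from 1.40 to 4.97 points for control HDAC3, from 0.817 to 3.43 for HDAC3 after knockdown, from 1.87 to 4.33 for control ATAC and from 1.52 to 3.47 for PC-3 HOXB13. The share of control sites that were WT-alone was 13.8% with an overlap of 50% of the shorter peak, 14.7% with centres within 100 bp, 11.1% with no peak of the other form within 500 bp, 12.6% in the better-scoring 50% of each list, 11.9% with re-expression lists as short as the control list, 13.65% with a common floor and 7.42% with WT tags at or above the list median. The neighbour difference was −0.804 points with centres within 100 bp, −0.863 with equal lists, −0.656 with the floor, −1.39 with tags at or above the median (all intervals held 0), and 0.242 in the better-scoring 50%. For HOXB13 peaks in knockdown cells the interval lay below 0 at −0.988 points (better-scoring 50%), −0.436 (equal lists) and −0.638 (tags at or above the median). For PC-3 H3K27ac of control cells it held 0 at 1.13 (better-scoring 50%) and 1.43 points (tags at or above the median). The difference in kept ATAC peaks was 4.78 points (0.227 to 9.33) with equal lists. HDAC1 among HDAC3 sites turned to 1.24 points with centres within 100 bp. The causes were not tested. Of 157 values for the main comparisons 139 counted as unchanged, as did 488 of 528 for the rest. Unchanged meant the same direction with the interval on the same side of 0, or intervals that held 0 in both settings. In the latter case the sign could change, as for kept HDAC3 peaks at −0.710 points with centres within 100 bp. For the share of WT-alone sites it meant a value within the main interval. No alternative varied depth, and the median WT-alone site lay close to the calling limit.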

Other observations

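WT-alone sites were found in 2709 of the 2885 windows of 1 Mb that held a control HOXB13 peak, with a median of 4 per window and at most 15. The windows below were picked after their values were seen, from those with the most WT-alone sites, so they are extremes of the 2885. Over all control peaks, 13.2% were WT-alone and 8.99% G84E-alone. The window of chromosome 1 from 162 to 163 Mb held 15 WT-alone sites and 1 G84E-alone site among 61 control peaks. The window of chromosome 3 from 139 to 140 Mb held 13 and 1 among 31, and the window of chromosome 5 from 115 to 116 Mb held 14 and 2 among 60. The window of chromosome 1 from 120 to 121 Mb held 13 and 8 among 60.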
